A study of Mus musculus with 9 samples.

Results

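The interleukin-6 family was followed through 10 genes of ligands, receptors and signalling in cultured synovial fibroblasts from mouse paws, of 47729 genes in the deposited table. The members were taken by symbol: the ligands Il6, Il11 and Lif, the receptor chains Il6st, Il6ra, Il11ra1, Lifr and Osmr, the feedback inhibitor Socs3 and the transcription factor Stat3. Each symbol matched 1 gene identifier, and all 10 members passed the filter on low values. No member passed the threshold of an adjusted p below 0.05 in any of the 3 group comparisons or in the test across the 3 groups (limma, 9 libraries). The members nearest to it were Il11ra1, the interleukin-11 receptor, and Lifr, the receptor chain for leukaemia inhibitory factor, both lower in cultures from paws injected a single time than in naive cultures. Lifr was also lower in cultures from paws injected repeatedly, with a difference from naive of -0.58 beside -0.66 after a single injection.

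Synovial fibroblasts form the connective tissue of the lining around a joint. The mice were wild-type BALB/c animals, and monosodium urate (MSU) crystals, the crystals of gout, were injected to inflame the paw. Primed cultures (3 libraries) derive from left paws given MSU on day 0 and on day 9, the 3 non-primed libraries from right paws injected on day 9 only, and the 3 naive libraries from paws given no crystals. All cultures are labelled as day 18 and as synovial fibroblasts from collagenase-digested paw, and the protocol gives 5 passages in culture. Paw side coincides with priming and cannot be told apart from it. Some mice may have given both a primed and a non-primed culture, per the design text, and no label names an animal. The p-values therefore describe variation between these cultures, part of which may be technical.

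Cytokines of the interleukin-6 family signal through a shared receptor chain, gp130, which Il6st encodes. Interleukin-6 and interleukin-11 first bind a private receptor, Il6ra or Il11ra1, and then pair 2 molecules of gp130, whereas leukaemia inhibitory factor and oncostatin M pair gp130 with Lifr or Osmr. The receptors activate JAK kinases and STAT3, which switches on target genes including Socs3, and SOCS3 protein then blocks the receptor. Synovial fibroblasts are a known source of interleukin-6 in inflamed joints.

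Sequence around an annotated start of the ligands and of Socs3 is shown first, because transcription of these 4 genes is known to respond to cytokine signals. Each is the RefSeq promoter on GRCm38.p6, running from 250 bases before to 50 bases after the annotated RefSeq start. By the gene coordinates given further below, the windows shown for Socs3 and Il11 lie inside the gene and not upstream of it. Capitals mark matches on either strand to TGANTCA, the letters of an AP-1 site, to GGG, any 2 bases and TTTCC, letters of an NF-kB site, or to TTCNNNGAA, the letters of a STAT site. The first stretch is that of Il6 (chr5:30012864-30013163, plus strand), the second that of the downstream of 2 annotated Il11 starts (chr7:4778092-4778391, minus strand), the third that of Lif (chr11:4257318-4257617, plus strand) and the last that of Socs3 (chr11:117969317-117969616, minus strand).
Il6: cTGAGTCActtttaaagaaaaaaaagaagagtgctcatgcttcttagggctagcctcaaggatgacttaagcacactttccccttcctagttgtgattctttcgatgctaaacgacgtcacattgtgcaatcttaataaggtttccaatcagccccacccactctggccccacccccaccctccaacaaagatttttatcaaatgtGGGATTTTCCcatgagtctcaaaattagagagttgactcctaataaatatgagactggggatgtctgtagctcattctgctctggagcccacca
Il11: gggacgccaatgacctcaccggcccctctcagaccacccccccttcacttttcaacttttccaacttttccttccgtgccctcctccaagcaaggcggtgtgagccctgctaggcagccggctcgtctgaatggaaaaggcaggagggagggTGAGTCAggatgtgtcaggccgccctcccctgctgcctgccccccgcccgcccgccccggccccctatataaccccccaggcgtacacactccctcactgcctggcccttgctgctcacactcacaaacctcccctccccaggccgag
Lif: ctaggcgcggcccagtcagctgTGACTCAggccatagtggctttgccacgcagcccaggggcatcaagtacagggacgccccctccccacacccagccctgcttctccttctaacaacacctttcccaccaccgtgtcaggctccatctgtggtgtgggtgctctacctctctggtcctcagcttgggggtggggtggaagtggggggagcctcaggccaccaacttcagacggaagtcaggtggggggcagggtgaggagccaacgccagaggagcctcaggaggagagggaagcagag
Socs3: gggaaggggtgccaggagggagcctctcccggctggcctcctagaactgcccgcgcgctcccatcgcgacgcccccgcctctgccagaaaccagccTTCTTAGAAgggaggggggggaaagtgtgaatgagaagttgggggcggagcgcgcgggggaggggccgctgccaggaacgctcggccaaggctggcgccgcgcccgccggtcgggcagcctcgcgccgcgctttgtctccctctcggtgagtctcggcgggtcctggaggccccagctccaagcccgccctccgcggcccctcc
The 3 ligand stretches shown held 1 AP-1 match each, with its first base at -249 in Il6, -98 in Il11 and -228 in Lif, counted from the start site. Osmr, whose stretch is not printed, held another at 4 bases into the transcript. The window of the upstream Il11 start, not printed either, held no AP-1, NF-kB or STAT match. Il11 was thus shown by the 1 of its 2 windows that held a match. Among all 32851 promoters of the same length, 7.81% held an AP-1 match. The NF-kB letters occurred in Il6 at -44 and in 1.63% of all promoters. The STAT letters occurred in Socs3 at -154 and in 8.3% of all promoters. RefSeq promoters were found for all 10 members, 13 in all, and the STAT letters were in none of the other members' windows, Il6st, Osmr and Stat3 included. No 2 of the matches overlapped. A match describes letters in a window and does not show binding.

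Levels are rlog values, the authors' log2-scale expression values scaled for library depth. The table holds no read counts, and the depth behind each value is unknown. Naive cultures varied most: the median SD between replicates over the 15623 genes tested was 0.14 in primed, 0.10 in non-primed and 0.22 in naive libraries. All 11 fibroblast markers passed the filter on low values (a mean rlog of at least 3), with Col3a1 at 17.46 to 19.14 and Vim at 15.36 to 16.05 over the 9 libraries. Macrophage markers were present as well: 13 of 13 passed the filter, none was at 0, and their mean level was 9.95 to 11.15 in primed, 10.21 to 10.74 in non-primed and 7.66 to 10.21 in naive libraries, with Lyz2, the macrophage lysozyme gene, at 12.75 to 16.53 over the 9 libraries. Of 7 lymphocyte markers 0 passed the filter, with Cd3e and Cd8a at 0 in all libraries and Cd4 highest at 0.75 to 1.2. Of 6 neutrophil markers S100a9 was at 0 and S100a8 at 1.96 to 2.22, and 1 passed the filter. This was Csf3r, the receptor for granulocyte colony-stimulating factor, at 3.04 to 3.67 in primed, 3.12 to 3.50 in non-primed and 2.57 to 2.86 in naive libraries. Injected cultures were higher without overlap by 0.63 and 0.65 (SE 0.19 each, adjusted p = 0.183 and adjusted p = 0.18, limma). Groups did not overlap, in either direction, for 17.1% and 21.9% of all genes. The mean of Csf3r over 9 libraries was 3.10, with all naive values below the filter of 3. It passed only through its injected values, so nothing is drawn from the difference. Of 7 endothelial markers 4 passed the filter, with 0 called, and Tek was highest at 6.89 to 9.38 over the 9 libraries, with groups overlapping. Vwf, the next highest, was higher without overlap in primed and non-primed than in naive cultures, beside the shares of all genes just given. Its differences were 1.07 and 1.05 (SE 0.25 each, adjusted p = 0.126 and adjusted p = 0.13, limma). In bulk RNA, fewer cells of a type and less RNA per cell cannot be told apart.

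To rank the members, the mean level was scaled per length by subtracting the log2 of the merged exon length in kilobases (GENCODE M21). On this scale Il6st stood highest at 12.55, and its lowest library lay above the highest library of every other member. Socs3 (9.78), Il11ra1 (9.63), Osmr (9.62), Stat3 (8.88) and Lifr (8.62) followed, with overlapping ranges between neighbours. The 3 ligands and Il6ra were lowest, with Il6 at 5.5, Il11 at 5.29, Il6ra at 4.46 and Lif at 3.30, again with overlap between neighbours. Lifr and Il6 did not overlap, so the order separates Il6st, then Socs3, Stat3 and the other receptors, then the ligands with Il6ra. The scaled level of Il11ra1 depends on a GENCODE gene model that reaches over 6 neighbouring genes.

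**Figure D1:**
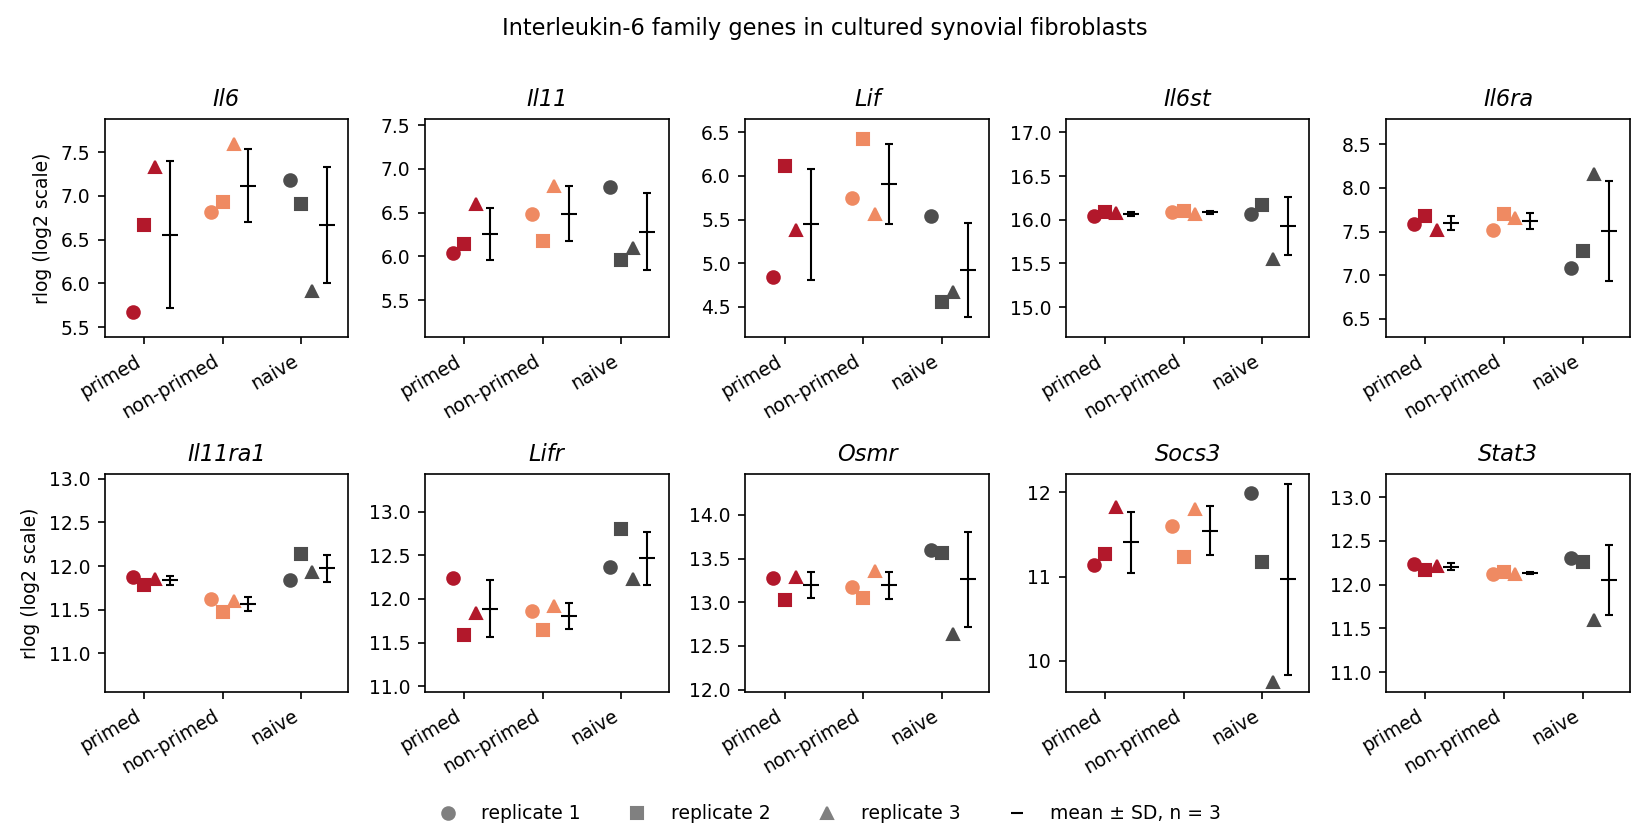
rlog of the 10 members by library, with groups on the x axis, 1 symbol per replicate number and bars for the mean ± SD of 3 libraries. Il6st and Stat3 lie close together in the 6 injected libraries and low in naive 3, and the non-primed values of Il11ra1 and Lifr lie below all naive values.

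Il6, the founding cytokine of the family (ENSMUSG00000025746, chromosome 5, 30013114 to 30019981), was the member whose injected libraries differed most from each other. Its rlog was 5.67, 6.67 and 7.34 in primed 1 to 3, 6.82, 6.93 and 7.60 in non-primed 1 to 3, and 7.18, 6.91 and 5.91 in naive 1 to 3. The groups overlapped, with the lowest library in the primed group and the highest in the non-primed group. The difference was -0.11 (SE 0.46, adjusted p = 0.928) in primed against naive cultures and 0.45 (SE 0.46, adjusted p = 0.691) in non-primed against naive cultures. Between primed and non-primed cultures it was -0.56, with a 95% interval of the limma fit running between -1.61 and 0.49. Within same-numbered libraries Il6 was lower in the primed culture by -1.15, -0.27 and -0.26, in each of the 3 pairs. Without primed 1, which had the lowest value, the difference between primed and naive cultures was 0.33, and without naive 3 it was -0.49.

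Il11, a ligand known in fibroblasts for its link to TGF-beta and fibrosis (ENSMUSG00000004371, chromosome 7, 4772373 to 4782859), varied less. It stood at 6.04, 6.14 and 6.60 in primed, 6.48, 6.17 and 6.81 in non-primed and 6.79, 5.96 and 6.10 in naive libraries. All groups overlapped, and the primed library was the lower of each same-numbered pair, by -0.44, -0.035 and -0.21. The differences were -0.03 in primed and 0.20 in non-primed cultures, both against naive ones (SE 0.27 each, adjusted p = 0.973 and adjusted p = 0.768, limma).

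Lif, which encodes leukaemia inhibitory factor (ENSMUSG00000034394, chromosome 11, 4257557 to 4272514), had the largest difference of any member. Its rlog was 4.85, 6.11 and 5.38 in primed libraries, 5.74, 6.42 and 5.56 in non-primed libraries, and 5.54, 4.56 and 4.67 in naive libraries. All 3 non-primed values lay above all 3 naive values, although non-primed 3 and naive 1 lay close together. The difference was 0.98 (SE 0.39, limma adjusted p = 0.278) in non-primed against naive cultures and 0.52 (SE 0.39, adjusted p = 0.519) in primed against naive cultures, neither past the threshold. Over the alternatives they lay between 0.52 and 1.29 in non-primed and between 0.16 and 0.83 in primed cultures. The primed difference was 0.19 without primed 2, 0.34 without naive 2, 0.82 without primed 1 and 0.83 without naive 1. Primed minus non-primed was -0.46 (SE 0.39, adjusted p = 1), and -0.89, -0.31 and -0.18 within the 3 same-numbered pairs. Markers of some other cells were higher beside Lif in non-primed against naive cultures, with 0 called. The 4 of 8 skeletal muscle markers that passed the filter were all higher without overlap, by a median of 1.19. Of all genes, 11.6% were higher without overlap in this comparison. The mean of the 8 muscle markers, none at 0 in all libraries, was 3.03 to 4.18 in primed, 3.39 to 3.93 in non-primed and 2.84 to 3.04 in naive libraries. All 6 tested of 7 Schwann cell markers were higher by a median of 0.97, with list means of 6.72 to 7.55 in primed, 7.19 to 7.64 in non-primed and 5.90 to 7.34 in naive libraries, and the macrophage markers were higher in 13 of 13 cases. The 5 adipocyte markers tested were instead lower, by a median of -2.10. The part of these markers in the Lif values was not tested.

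No gene was among the 5 most alike for more than 1 ligand. Among the tested genes with a symbol of their own, those whose 9 rlog values had the highest Pearson r with Il6 were Mtfmt (r = 0.95), Tnfsf11 (r = 0.91), Arhgef19 (r = 0.90), Frmpd1 (r = 0.89) and Errfi1 (r = 0.89). For Il11 they were Syt4 (r = 0.94), Msx2 (r = 0.92), Polk (r = 0.92), Siva1 (r = 0.91) and Arntl2 (r = 0.90). For Lif they were Sema4f (r = 0.98), Hmcn2 (r = 0.96), Tnc (r = 0.95), Glb1l2 (r = 0.95) and Gpc1 (r = 0.95). These are the extremes of 15623 genes over 9 libraries that share groups and possibly mice, and are given as a description only. Tnfsf11, the gene of RANKL, stood at 7.18, 8.54 and 8.74 in primed, 8.38, 8.28 and 8.93 in non-primed and 8.29, 8.81 and 7.08 in naive libraries. Like Il6, it was low in primed 1 and naive 3. Tnc, the gene of the matrix protein tenascin-C, stood at 12.89, 14.34 and 13.95 in primed, 13.75, 14.35 and 13.85 in non-primed and 13.57, 12.65 and 12.85 in naive libraries. Its highest libraries were primed 2 and non-primed 2, as for Lif.

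Il6st, the gp130 gene (ENSMUSG00000021756, chromosome 13, 112464070 to 112510086), was almost constant apart from 1 library. It lay between 16.04 and 16.10 in all 6 injected libraries, and stood at 16.07 and 16.17 in naive 1 and naive 2 but at 15.55 in naive 3. The replicate SD was 0.03 in primed, 0.02 in non-primed and 0.34 in naive libraries. The difference was 0.14 in primed and 0.15 in non-primed cultures, both against naive ones (SE 0.19 each, adjusted p = 0.748 and adjusted p = 0.749, limma). Without naive 3 these were -0.05 and -0.04.

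Lifr, the chain that binds leukaemia inhibitory factor (ENSMUSG00000054263, chromosome 15, 7090614 to 7197489), was lower after injection without passing the threshold. Its rlog was 12.24, 11.59 and 11.84 in primed libraries, 11.87, 11.64 and 11.91 in non-primed libraries, and 12.37, 12.80 and 12.22 in naive libraries. Every non-primed value lay below every naive value, and primed 1 was just above naive 3. The differences were -0.58 in primed against naive cultures (SE 0.19, limma adjusted p = 0.209) and -0.66 in non-primed against naive cultures (SE 0.19, adjusted p = 0.182). Primed minus non-primed was 0.08, with a 95% interval of the limma fit between -0.35 and 0.52. Under all 16 alternative settings the difference against naive stayed negative, between -0.82 and -0.41 for primed and between -0.89 and -0.49 for non-primed cultures. Of the 5 adipocyte markers that passed the filter, 4 were lower in primed and 5 in non-primed than in naive cultures, with 0 called. Their median differences were -1.53 and -2.10, but Fabp4 differed by 0.03 and -0.16 and Pparg by -0.06 and -0.23. The mean of the 7 listed without Lep, which was at 0, was 5.00 to 6.04 in primed and 4.97 to 5.23 in non-primed libraries. In naive 1 to 3 it was 7.15, 7.24 and 5.13, so naive 3 lay among the injected libraries. Primed 1, the highest injected library for Lifr, was also the highest injected library for the mean of these markers. Their part in the Lifr values was not tested.

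Il11ra1, which encodes the private interleukin-11 receptor (ENSMUSG00000073889, chromosome 4, 41699989 to 41769474), had the smallest adjusted p of any member. It stood at 11.88, 11.78 and 11.85 in primed, 11.62, 11.47 and 11.60 in non-primed, and 11.84, 12.14 and 11.94 in naive libraries. The non-primed libraries lay below both other groups without overlap, and primed and naive libraries overlapped. Non-primed minus naive was -0.41 (SE 0.09, limma adjusted p = 0.125), primed minus naive -0.14 (SE 0.09, adjusted p = 0.474) and primed minus non-primed 0.27 (SE 0.09, adjusted p = 1). The direction of the difference between non-primed and naive cultures held under all 16 alternatives, with values between -0.52 and -0.30. The level is uncertain, since the gene model overlaps Galt on the same strand and 5 genes on the other, and the strand setting of the counting is not given in the sources used here. Of its close copies, Il11ra2 was at 0 and Gm13305 and Gm13306 were below 0 on the rlog scale in all 9 libraries.

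Il6ra, the private receptor for interleukin-6 (ENSMUSG00000027947, chromosome 3, 89864059 to 89913196), was level in injected cultures and scattered in naive ones. It stood at 7.59, 7.68 and 7.52 in primed, 7.52, 7.70 and 7.65 in non-primed and 7.08, 7.27 and 8.15 in naive libraries. Injected values fell between those of naive 2 and naive 3. The difference from naive was 0.09 in primed and 0.12 in non-primed cultures (SE 0.25 each, adjusted p = 0.884 and adjusted p = 0.86, limma), and 0.42 and 0.45 without naive 3 (adjusted p = 0.124 and adjusted p = 0.1, among adjusted p of 0.124 to 0.976 and 0.1 to 0.993 over all alternatives). The antisense gene Gm42809 overlaps it, so its level carries the same doubt about strand.

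Osmr, the oncostatin M receptor chain (ENSMUSG00000022146, chromosome 15, 6813577 to 6874969), did not separate the groups. It stood at 13.28, 13.03 and 13.29 in primed, 13.17, 13.05 and 13.36 in non-primed and 13.59, 13.56 and 12.64 in naive libraries. Naive 1 and naive 2 were above all injected libraries and naive 3 below all of them. Both differences from naive were close to 0, at -0.06 for primed and -0.07 for non-primed cultures (SE 0.24 each), and both were -0.38 without naive 3.

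Socs3, the feedback inhibitor known as a target of STAT3 (ENSMUSG00000053113, chromosome 11, 117966079 to 117970047), had the widest range of all members. Its rlog was 11.14, 11.27 and 11.82 in primed libraries, 11.61, 11.23 and 11.81 in non-primed libraries, and 11.99, 11.17 and 9.75 in naive libraries. The highest and the lowest of the 9 values were both naive. The difference was 0.44 (SE 0.48, adjusted p = 0.678) in primed and 0.58 (SE 0.48, adjusted p = 0.615) in non-primed cultures, both against naive ones by limma. Without naive 3 the differences were -0.17 and -0.03.

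Stat3 itself (ENSMUSG00000004040, chromosome 11, 100885098 to 100939540) stood at 12.24, 12.17 and 12.21 in primed, 12.12, 12.14 and 12.12 in non-primed and 12.30, 12.26 and 11.59 in naive libraries. All primed values lay above all non-primed values, by a mean of 0.08 (SE 0.17, adjusted p = 1). The SE, which is shared with the naive libraries, is larger than the SD of 0.04 in primed and 0.01 in non-primed libraries. Against naive cultures the differences were 0.16 in primed and 0.08 in non-primed ones, and -0.07 and -0.15 without naive 3. Stat5a overlaps Stat3 on the opposite strand.

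**Figure D2:**
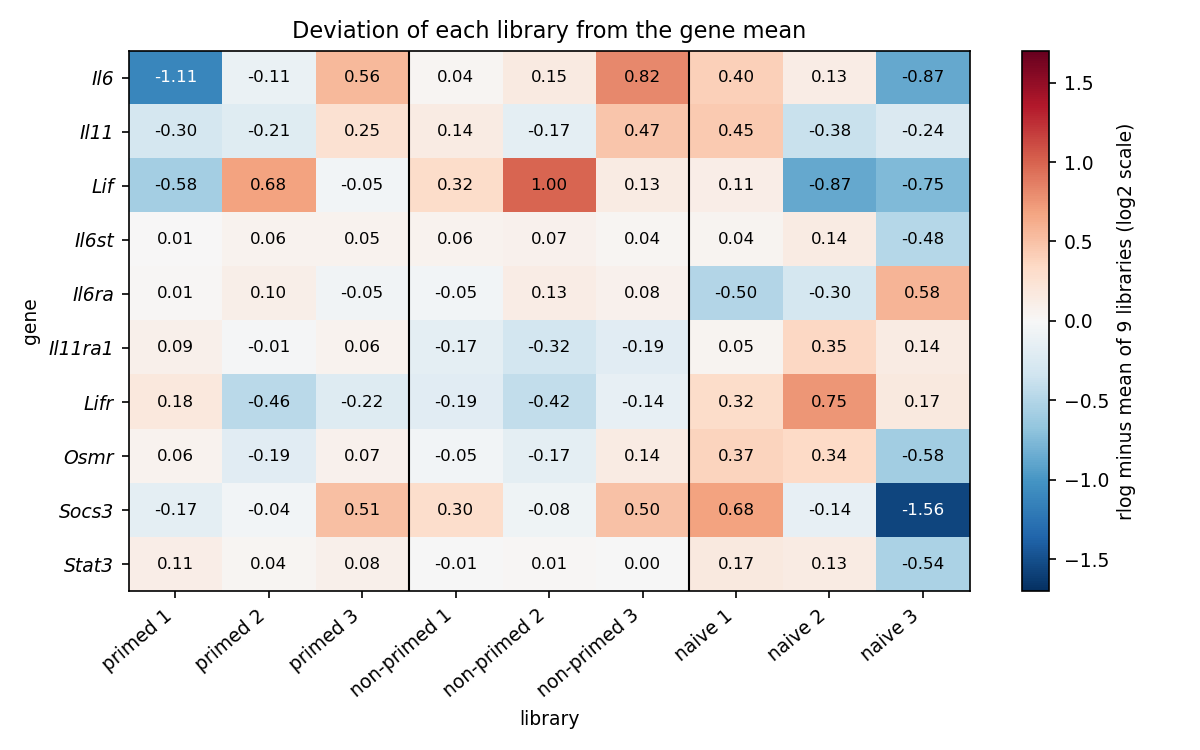
Deviation of each library from the mean of its gene over 9 libraries, in rlog units on a log2 scale, with members as rows and libraries as columns. Naive 3 is the lowest library for Il6st, Osmr, Socs3 and Stat3, at -0.48 to -1.56, and the highest for Il6ra at 0.58.

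The naive group had the largest replicate SD for 7 of 10 members, as it did for 67.4% of all genes tested. Naive 3 was the lowest library for 4 members, Il6st, Osmr, Socs3 and Stat3, and the highest for Il6ra, against 26.5% and 25.1% of all genes tested. Set against the mean of naive 1 and naive 2, naive 3 was lower by 1.83 for Socs3, 0.94 for Osmr, 0.69 for Stat3 and 0.57 for Il6st, and higher by 0.98 for Il6ra. In the same library the means of the macrophage list (7.66) and the Schwann cell list (5.90) were the lowest of the 9. These means were 8.03 and 7.34 in naive 1, and 10.21 and 6.82 in naive 2. Naive 1, with a macrophage mean near that of naive 3, was the highest library for Osmr, Socs3 and Stat3 and the lowest for Il6ra. The part of these markers in the members' values was not tested.

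The count of members past the threshold was 0 of 10 in primed against naive cultures, where 0.102% of all genes passed, 16 in number, or 51 with the replicate number as a block and again 0 members. It was 0 of 10 in non-primed against naive cultures, where 0.141% passed, and 0 of 10 in primed against non-primed cultures, where 0% passed. The moderated F test across the 3 groups called 0 members and 0.0704% of all genes. At an unadjusted p below 0.05 there was 1 member in primed against naive cultures (16.9% of all genes), 3 in non-primed against naive cultures (15.4%) and 1 in primed against non-primed cultures (1.26%). Groups did not overlap for 0, 3 and 2 members in these comparisons, against 17.1%, 21.9% and 11.6% of all genes. In non-primed against naive cultures 1 of the 3 was higher and 2 were lower, as were 11.6% and 10.3% of all genes, and in primed against non-primed cultures both were higher, as were 6.31% of all genes. Within same-numbered primed and non-primed libraries, 3 members (Il6, Il11 and Lif) were lower in primed in all 3 pairs and 2 (Il11ra1 and Stat3) higher, against 17.3% and 16.6% of all genes. With the replicate block the adjusted p of each of these 5 was 1. For a single gene, the smallest two-sided p of an exact permutation test at this size is 0.1. The median difference of the 10 members was 0.03, 0.14 and -0.02, and that of all genes was within 0.01 of 0 in each. Both comparisons with naive cultures use the same 3 naive libraries.

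**Figure D3:**
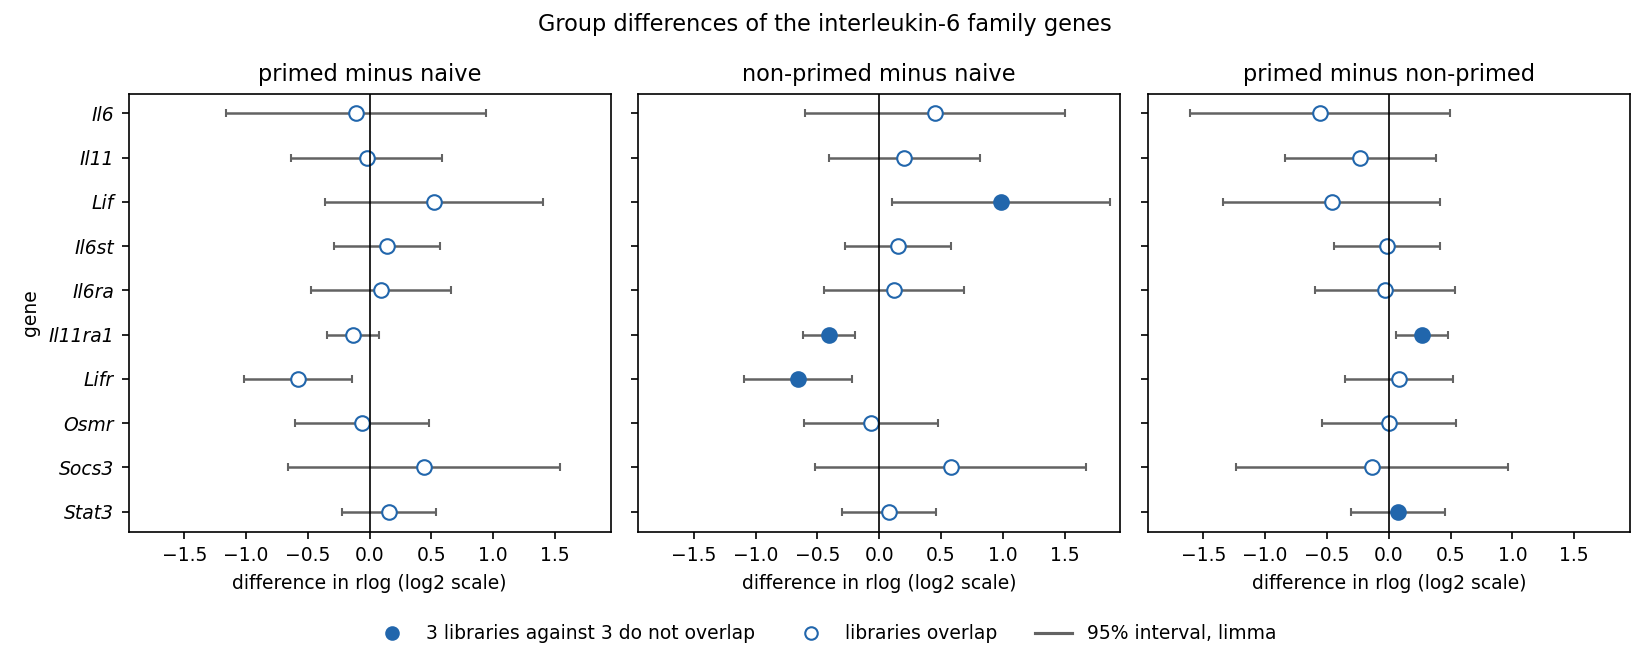
Differences in rlog (log2 scale, x axis) for each member (y axis) in the 3 comparisons, with 95% intervals from the limma fit; filled points mark groups whose libraries do not overlap. The intervals of Lif, Il11ra1 and Lifr in non-primed minus naive, of Lifr in primed minus naive and of Il11ra1 in primed minus non-primed leave out 0, before any adjustment for the number of genes.

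When limma estimated a weight for each library, Lifr in primed against naive cultures passed at -0.61 (SE 0.15, adjusted p = 0.0478, among adjusted p of 0.0478 to 0.616 over its alternatives). Il11ra1 in primed against non-primed cultures passed at 0.24 (SE 0.04, adjusted p = 0.018, among 0.018 to 1). Under the same weights 4.69% of all genes passed in primed against naive cultures and 13.5% in primed against non-primed cultures, beside 1 member of 10 in each. The weights were unequal, with 10.41 for non-primed 1 and 7.29 for primed 3 against 0.13 for naive 3 and at most 1.65 for any other library.

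Around the members, 94 further genes of the pathway were followed in 10 lists, of which 82 were tested. None passed the threshold in any comparison. Of the other family ligands, 4 of 9 were tested, with 0 called. Osm, the gene of oncostatin M, which leukocytes are known to make, stood at 3.44, 3.97 and 3.53 in primed, 3.85, 3.91 and 3.69 in non-primed and 2.85, 3.40 and 2.89 in naive libraries. Every injected library lay above every naive one, by a mean of 0.60 (SE 0.20, adjusted p = 0.206) in primed and 0.78 (SE 0.20, adjusted p = 0.15) in non-primed cultures. Macrophage markers were higher alongside, in 13 of 13 cases in both comparisons, with median differences of 2.01 and 1.87 and 0 called. Their part in the Osm values was not tested.

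Ctf1, the gene of cardiotrophin-1, ran the other way at 6.97, 6.59 and 6.44 in primed, 6.67, 6.50 and 6.54 in non-primed and 7.17, 7.30 and 7.11 in naive libraries. The injected libraries lay below the naive ones without overlap, by -0.53 in primed and -0.62 in non-primed cultures (SE 0.16 each, adjusted p = 0.188 and adjusted p = 0.155, limma). Of the other receptors, 1 of 4 was tested. This was Il27ra, the interleukin-27 receptor, which differed by -0.38 in primed and -0.68 in non-primed cultures from naive ones (SE 0.17 each, adjusted p = 0.3 and adjusted p = 0.14, limma) without overlap in either case. Il11ra2 and Il31 were at 0 in all 9 libraries.

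The JAK and STAT list had 9 of 10 genes tested and 0 called, with a median difference of 0.07 in primed and 0.03 in non-primed cultures. Its genes with the smallest p across groups were Jak1, a kinase bound to gp130, at 0.32 and 0.30 (SE 0.16 each), and Stat5b at -0.15 and -0.14 (SE 0.09 each), in primed and in non-primed cultures against naive ones. In the SHP2 and adaptor branch, which links the receptor to MAP kinases, 8 of 8 were tested and 0 called. Sos1, an exchange factor for RAS, differed by -0.50 (SE 0.10, adjusted p = 0.1) in primed and -0.29 in non-primed cultures, and Grb2, its adaptor, by 0.39 (SE 0.10, adjusted p = 0.141) and 0.33, each without overlap with naive libraries.

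Among feedback inhibitors and phosphatases, 13 of 13 were tested and 0 called, with medians of -0.07 in primed and -0.05 in non-primed cultures. Ptpn6, the SHP1 phosphatase of blood cells, stood at 8.70, 9.31 and 8.19 in primed, 8.56, 9.02 and 8.31 in non-primed and 6.53, 8.08 and 6.62 in naive libraries. It was higher by 1.65 in primed and 1.55 in non-primed cultures (SE 0.44 each, adjusted p = 0.152 and adjusted p = 0.175, limma), beside the macrophage markers given above, whose part was not tested. Pias3, a protein inhibitor of STAT3, differed by -0.30 in primed and -0.28 in non-primed cultures (SE 0.12 each). Of the genes known to respond to STAT3, 15 of 16 were tested, 5 were higher and 10 lower in primed and 8 higher and 7 lower in non-primed cultures than in naive ones, with 0 called and medians of -0.08 and 0.07. Il4ra, a receptor chain for interleukin-4, differed by 0.83 and 0.95 (SE 0.39 each), and Lcn2, the gene of lipocalin-2, by -1.62 and -2.30 (SE 0.94 each), in primed and in non-primed cultures. Lcn2 stood at 7.66, 8.96 and 4.85 in naive 1 to 3, and both injected groups overlapped the naive libraries.

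Sorl1, a sorting receptor known to bind interleukin-6 and its receptor, came closest to the threshold of all pathway genes. It stood at 8.97, 8.29 and 8.43 in primed, 8.22, 7.91 and 8.23 in non-primed and 9.40, 9.83 and 9.17 in naive libraries, with no overlap between any 2 groups. The difference from naive was -0.90 (SE 0.22, adjusted p = 0.137) in primed and -1.35 (SE 0.22, adjusted p = 0.0583) in non-primed cultures, and primed minus non-primed was 0.45 (SE 0.22, adjusted p = 1). The other 5 genes of the shedding and trafficking list included Adam10, a protease that cleaves the interleukin-6 receptor, at -0.14 and 0.06 (SE 0.09 each).

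Of the factors that bind Il6 mRNA, 8 of 8 were tested and 0 called. Rc3h1 and Rc3h2, the Roquin genes, differed by -0.41 and -0.34 in primed and by -0.28 and -0.15 in non-primed cultures (SE 0.11 for Rc3h1 and 0.10 for Rc3h2). Of the transcription factors known to act on Il6, 9 of 9 were tested and 0 called. Nfkbiz, a co-activator of NF-kB at Il6, stood at 9.65, 10.08 and 10.47 in primed, 10.37, 10.35 and 10.43 in non-primed and 9.70, 9.77 and 9.37 in naive libraries. The non-primed libraries lay above the naive ones by 0.77 (SE 0.19, adjusted p = 0.145), and primed ones overlapped them at a difference of 0.45 (SE 0.19, adjusted p = 0.288). Jun, a subunit of AP-1, differed by 0.17 in primed and 0.48 in non-primed cultures (SE 0.18 each, adjusted p = 0.668 and adjusted p = 0.274, limma). Of the interleukin-1 and TNF inducers, 9 of 11 were tested and 0 called, and Il1a and Il1b were below the filter. Il1rap, the co-receptor of interleukin-1, differed by 0.32 and 0.34 (SE 0.11 each), and Il17ra, a receptor chain for interleukin-17, by 0.58 and 0.38 (SE 0.18 each), in primed and in non-primed cultures.

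**Figure D4:**
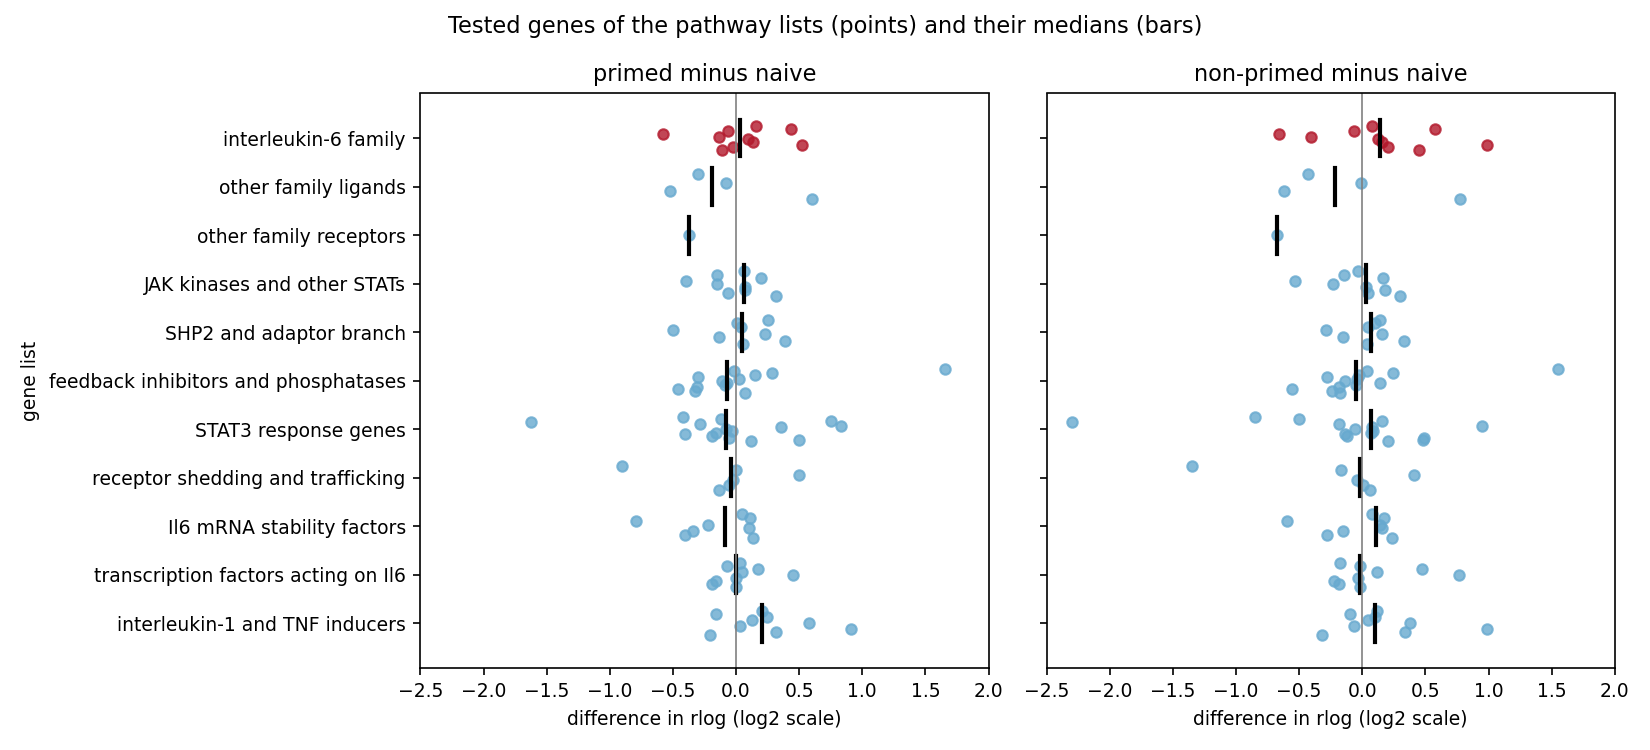
Differences in rlog (log2 scale, x axis) of the tested genes in each list (y axis), in primed minus naive on the left and non-primed minus naive on the right; points are genes and bars are list medians. The interleukin-6 family and the 10 other lists scatter on both sides of 0, except the receptor list with 1 tested gene, and the outlying points are Ptpn6 on the high side and Lcn2 and Sorl1 on the low side.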

How the data were processed

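RNA of cultured synovial fibroblasts was sequenced in 9 libraries, made from equal amounts of RNA with a stranded mRNA kit per the labels' protocols. The authors deposited 1 table of rlog values on a log2 scale for 47729 genes, scaled for depth, with genes of few reads drawn towards their mean. Per the submitters' processing notes, the tools were DESeq2, featureCounts, Subread 1.6.1, STAR 2.5.4a and cutadapt 2.5, on GRCm38. The sources used here give no annotation, strand setting or rlog setting. Depth is unknown, so precision rests on 3 libraries per group.

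Columns were matched to samples by name and groups taken from titles. Symbols matched 47224 identifiers, and coordinates and exon lengths are those of GENCODE M21 on GRCm38. The 15623 genes that varied with a mean rlog of at least 3 were fitted with limma 3.58.1 in R 4.3.3, with 1 mean per group, a shared spread with 6 residual degrees of freedom and a mean-variance trend, after a check on simulated data. Tests are two-sided, with Benjamini-Hochberg adjustment over all genes tested and a threshold of 0.05.

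The members and lists were chosen with earlier results of these data known. Named genes are the members, and from each list the 2 genes with the smallest F test p-value and any past the threshold. Others named are the 5 genes most like each ligand, and the 2 highest markers of fibroblasts, macrophages and endothelial cells with any marker at 0. Of the genes most like a ligand, Tnfsf11 and Tnc were picked for full values after these were seen.

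Titles number replicates 1 to 3 in each group, although the design text says that numbers need not identify a mouse. Deviations from group means correlated across genes at 0.418, 0.608 and 0.1002 for primed with non-primed libraries of the same number, each above 0.1, so these were taken as possibly paired. With naive libraries of the same number the correlations were 0.093, -0.053 and 0.101 for primed and 0.15, -0.16 and -0.12 for non-primed ones, not each above 0.1. Primed and non-primed libraries of unlike number correlated between -0.50 and 0.28. The highest of these, primed 1 with non-primed 3, lay above the third same-numbered pair. Of the tests, only the alternative with a replicate block used the pairing. Differences and counts within same-numbered libraries are given as descriptions. Further alternatives were no filter, no variance trend, 2 groups alone, sample weights, median centring, the macrophage marker mean as a covariate, and leaving out each library.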

Additional observations from a re-analysis of the deposited data

How the results depend on the processing

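Of 210 member differences under 7 alternative settings, 193 kept their direction and side of the threshold, 15 reversed and 2 passed the threshold, and of 270 with 1 library left out, 241 kept both and 29 reversed. The count of members past the threshold was 0 throughout, except under sample weights, where it was 1 in primed against naive, 1 in primed against non-primed cultures and 2 in the test across groups (Il11ra1 and Lifr), against 4.69%, 13.5% and 15.9% of all genes under the same weights, and 0 in non-primed against naive cultures, against 3.97%. The test across groups was not run with the macrophage covariate or with 2 groups alone.

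Sample weights reversed Il6 to 0.20 and Stat3 to -0.012 in primed minus naive, Il6 to -0.071, Il11 to -0.036 and Stat3 to -0.10 in non-primed minus naive, and Il6 to 0.27, Il11 to 0.024, Lifr to -0.017 and Socs3 to 0.13 in primed minus non-primed. The macrophage covariate reversed Il11 to 0.41, Il6st to -0.14 and Stat3 to -0.10 in primed minus naive, Il6st to -0.10 and Stat3 to -0.15 in non-primed minus naive, and Osmr to -0.016 in primed minus non-primed. The cause was not tested.

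With 1 library left out, primed minus naive ranged over -0.50 to 0.33 for Il6, -0.19 to 0.23 for Il11, -0.053 to 0.26 for Il6st, -0.12 to 0.42 for Il6ra, -0.38 to 0.10 for Osmr, -0.17 to 0.95 for Socs3 and -0.074 to 0.28 for Stat3. Non-primed minus naive ranged over -0.038 to 0.27 for Il6st, -0.089 to 0.45 for Il6ra, -0.38 to 0.10 for Osmr, -0.034 to 1.09 for Socs3 and -0.15 to 0.20 for Stat3. Primed minus non-primed ranged over -0.081 to 0.0082 for Il6ra, -0.091 to 0.23 for Lifr and -0.066 to 0.091 for Osmr.

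Over all genes, 16 passed in primed against naive cultures, 1 with the macrophage covariate, 0 with no filter, no variance trend or 2 groups alone, 51 with the replicate block, 733 with sample weights, and 0 to 356 with 1 library left out, the highest without naive 2. In non-primed against naive cultures 22 passed, 0 with the covariate or no filter, 5 with no trend, 7 with 2 groups alone, 17 with the replicate block, 621 with weights, and 0 to 355 with 1 library left out, the highest again without naive 2. In primed against non-primed cultures 0 passed, and 2109 with weights. The replicate block changed no member's call. Depth is unknown, so what it limits cannot be given.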
